A study of Mus musculus with 12 samples.

Results

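Liver immune cells of mice given polyIC together with an antibody to PD-L1 were compared with those of mice given neither, in 3 libraries of each group out of the 12 of the study. The comparison covered every gene of the deposited table that reached 1 FPKM (fragments scaled by transcript length and library size) in at least 3 of the 12 libraries, 11978 of 24319 entries. A set of 22 entries, listed at 0 in a whole group but at 5 FPKM or more in each library of another, was left out beforehand; Actb, Cd74 and Apoe were among them.

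All mice were C57BL/6 and received the oncogenes human c-Myc and N-ras by hydrodynamic transfection on day 0. That procedure forces plasmid DNA into hepatocytes by rapid injection of a large volume into a vein, and both groups carried it. Combination mice were given polyIC at 4 mg/kg into the abdominal cavity on days 14, 16, 18, 20 and 22 and 200 µg of PD-L1 antibody on days 17, 19 and 21. Control mice were given PBS and 200 µg of IgG on the same days. The other groups received polyIC with IgG, or PD-L1 antibody with PBS. Livers were taken on day 24 by the protocol, while the time point label reads day 22. Cells were captured with an anti-CD45 antibody and magnetic beads. The labels call them CD45 positive, although the protocol's wording of the captured fraction can be read as its opposite. They do not say whether the libraries of a group came from separate mice, so p-values measure only the spread between these samples, which may be technical.

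PolyIC is a synthetic double-stranded RNA that is sensed by TLR3 in endosomes and by MDA5 in the cytosol, and it raises type I interferon. PD-L1, the product of Cd274, is displayed by myeloid and tumour cells and restrains T cells through the receptor PD-1, the product of Pdcd1. The healthy liver holds many resident macrophages, the Kupffer cells, beside NK cells, T cells, B cells and dendritic cells, and monocytes enter it from the blood when it is inflamed.

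Ptprc, which encodes CD45, was read at 206, 251 and 261 FPKM in control and 381, 479.8 and 487 FPKM in combination, where values are given throughout in the order of replicates 0, 1 and 2. It was therefore abundant in all 6 libraries, and higher in combination by a log2 difference of 0.90 (adjusted p = 0.00529). Differences are on the log2(FPKM + 1) scale, which understates changes of low genes, and were tested with limma at an adjusted p under 0.05. By that rule 3524 genes (29.4% of those tested) were called, 1572 higher in combination (13.1%) and 1952 lower (16.3%). With quantile normalization the split was 2001 higher and 1649 lower, a share of higher calls of 54.8% against 44.6%. The median difference over all genes tested was 0.05. All 3 combination libraries were above all 3 controls in 25.6% of the genes and below them in 20.3%. Control replicate 2 lay nearest to the combination group, with a mean correlation across genes of 0.909 to those libraries, against 0.872 for replicate 1 and 0.830 for replicate 0. Leaving out control replicate 2 gave 4151 calls, and the fewest calls, 1666, came without combination replicate 1; without control replicate 0 there were 1764, without combination replicate 2 there were 2268 and without control replicate 1 there were 2293. A total of 1531 of the 3524 calls passed in all 6 such fits, and none changed sign in any of them.

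**Figure D1:**
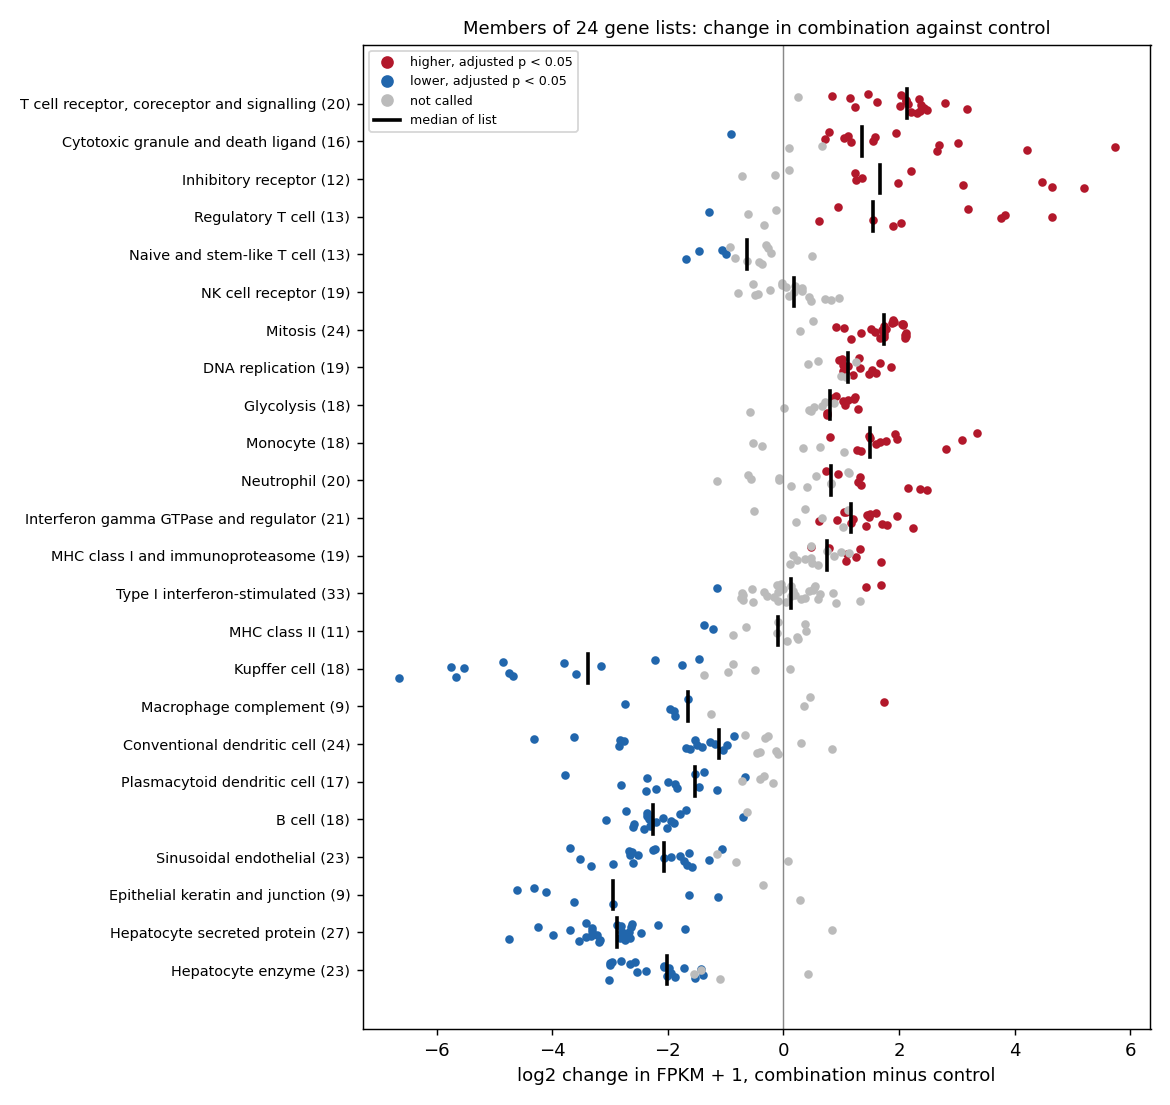
Differences between combination and control for the tested members of 24 gene lists, on the log2(FPKM + 1) scale. Each point is a gene, red where called higher, blue where called lower and grey where not called; black bars are list medians, and the number of tested members stands beside each list name. T cell, cytotoxic, mitosis and monocyte members lie mostly to the right, and Kupffer, dendritic, B cell, endothelial and hepatocyte members mostly to the left.

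T cell genes were higher in the combination group. Of 20 tested genes of the T cell receptor, its coreceptors and its signalling chain, 19 rose, 0 fell and the median log2 difference was 2.14, against 0.05 over all genes; 17 of the calls passed in each of 18 other settings. Cd8a, the coreceptor of cytotoxic T cells, was read at 12.1, 17.2 and 34.3 FPKM in control and 200.5, 183 and 168 FPKM in combination, an 8.69-fold difference of means (log2 difference 3.18 ± 0.53 SE, adjusted p = 0.00306). Cd3g, a chain of the CD3 complex that all T cells carry, was read at 66.3, 116 and 214 FPKM in control and 588, 654 and 594 FPKM in combination (adjusted p = 0.0032). Cd4, the coreceptor of helper T cells, was read at 26.1, 42.5 and 61.8 FPKM in control and 83.4, 127 and 89 FPKM in combination, a smaller difference (log2 difference 1.24 ± 0.27 SE, adjusted p = 0.00769). In none of these 3 genes did a control library reach a combination library. In bulk RNA, more cells of a type and more RNA per cell cannot be told apart. The summed level of the list was 524 to 1462 FPKM in control and 3314 to 4306 FPKM in combination. The summed hepatocyte secreted genes were lower: 0.568% to 1.9% of the FPKM total in control and 0.0885% to 0.137% in combination. That sum includes Apoc1, which macrophages also make. Apoc1 was read at 2742, 3316 and 561 FPKM in control and 70.4, 57.2 and 63.3 FPKM in combination. The part of the hepatocyte genes in the T cell values was not tested.

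Cytotoxic effectors rose with them. Of 16 tested genes of cytotoxic granules and death ligands, 13 rose and 1 fell (median 1.36). Gzmk, a granule protease typical of memory and chronically stimulated CD8 T cells, was among the 12 largest rises on the log2(FPKM + 1) scale: 3.89, 16.9 and 9.89 FPKM in control and 487, 628 and 465 FPKM in combination (51.4-fold, log2 difference 5.73 ± 0.73 SE, adjusted p = 0.00123). Gzmb, the main granule protease that triggers target cell death, was read at 40.1, 55.4 and 95.8 FPKM in control and 864, 1587 and 1036 FPKM in combination (log2 difference 4.21). Both sets were fully separate, which was a condition for the 12 largest rises. Prf1, the pore-forming perforin, was read at 12.1, 17.9 and 31.4 FPKM in control and 134, 127 and 123 FPKM in combination. Nkg7, a granule membrane protein, and Gzma rose by log2 differences of 3.02 and 2.66, and Fasl, the death ligand, by 1.59. The gene that fell was Lamp1, a lysosomal membrane protein (log2 difference -0.91, adjusted p = 0.0438); its adjusted p was 0.161 and 0.149 with control replicates 0 and 1 left out in turn, and 0.0589, 0.107 and 0.131 with combination replicates 0, 1 and 2 left out in turn, and 0.0634 with no filter, 0.0523 with a mean FPKM of at least 5 and 0.0993 with only the groups compared. Gzmd, Gzme, Gzmf and Gzmg were under the filter and were not tested.

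Receptors that restrain T cells rose in the same libraries. Of 12 tested inhibitory receptors, 9 rose and 0 fell (median 1.68), and 8 of the rises passed in each of the 18 other settings. Pdcd1, which encodes PD-1, the partner of the ligand blocked by the antibody, was read at 2.77, 8.12 and 5.17 FPKM in control and 204, 267 and 188 FPKM in combination (41-fold, log2 difference 5.19 ± 0.75 SE, adjusted p = 0.00191). Ctla4, a competitor of CD28 for its ligands, was read at 1.64, 2.74 and 4.24 FPKM in control and 58.2, 131 and 102 FPKM in combination, and Tigit, a receptor for CD155, at 6.65, 15.9 and 15.5 FPKM in control and 361, 288 and 222 FPKM in combination. Every combination library was above every control library for each of the 3 genes, by more than 10-fold. Lag3 and Havcr2, which encodes TIM-3, rose by log2 differences of 3.10 and 1.99. Btla, an inhibitory receptor shared with B cells, did not pass: its values were 33.1, 32.7 and 76.4 FPKM in control and 25.6, 19.9 and 35.6 FPKM in combination (adjusted p = 0.169).

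Of 12 tested checkpoint and costimulatory ligands, 0 rose and 1 fell by limma (8.33%, against 16.3% of all genes). At an unadjusted p under 0.05, 1 was higher and 4 were lower. Cd274 itself, the target of the antibody, was read at 20.9, 22.5 and 14.6 FPKM in control and 31.3, 42.8 and 38.1 FPKM in combination. Each combination library was above each control library, but the difference did not pass (log2 difference 0.93 ± 0.35 SE, adjusted p = 0.0686). It passed in 7 of 18 other settings, over which the adjusted p ran from 0.00196 to 0.193. The ligand that fell was Fgl1, a hepatocyte product that binds LAG-3, at 7.12, 11.7 and 5.62 FPKM in control and 0.81, 1.8 and 1.84 FPKM in combination (adjusted p = 0.00178).

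Among 10 tested activating and costimulatory receptors, 6 rose and 1 fell (median 0.89). Tnfrsf4, which encodes OX40, a receptor displayed after activation, was read at 3.02, 6.12 and 5.33 FPKM in control and 65, 93.5 and 72.2 FPKM in combination (log2 difference 3.77 ± 0.41 SE, adjusted p = 0.000749). Tnfrsf9, which encodes 4-1BB, rose by 2.91 and Icos by 0.94, both on the log2 scale. Of 15 transcription factors of T cells, 8 rose; the count was 5 without control replicate 0, and 5 without combination replicate 1. Tox, a factor needed by T cells under lasting antigen exposure, was read at 4.64, 7.14 and 8.88 FPKM in control and 123, 90.6 and 83.7 FPKM in combination (14.4-fold, adjusted p = 0.00169). Eomes, a T-box factor of effector and memory cells, was read at 2.26, 4.77 and 5.97 FPKM in control and 38.3, 37.7 and 27.6 FPKM in combination, and Nr4a2, induced by T cell receptor signals, at 1.03, 1.1 and 0.981 FPKM in control and 24.4, 14.7 and 16.5 FPKM in combination. These values did not overlap between the groups. Batf and Prdm1, which encodes BLIMP-1, rose by 2.20 and 1.81, while Tbx21, the other T-box factor, did not pass (log2 difference 0.81, adjusted p = 0.0667).

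Genes of resting T cells fell or did not pass. Of 13 tested genes of naive and stem-like T cells, 0 rose and 4 fell (30.8%, against 16.3% of all genes, median -0.63). The falls numbered 2 and 2 with combination replicates 1 and 2 left out in turn. Of the 4 falls, 2 passed in every other setting that tested them. Ccr7, the receptor that directs cells to lymph nodes, was read at 44.4, 44.8 and 117 FPKM in control and 23.9, 11.6 and 22.5 FPKM in combination (log2 difference -1.68 ± 0.37 SE, adjusted p = 0.00819). Bach2, a repressor of effector programmes, was read at 5.39, 3.47 and 9.11 FPKM in control and 2.1, 1.05 and 1.15 FPKM in combination (log2 difference -1.47). B cells express both genes as well. Control replicate 2 was the highest library for both.

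Genes of regulatory T cells rose too. Of 13 tested, 9 rose (69.2%, against 13.1% of all genes) and 1 fell (7.69%, against 16.3%), with a median of 1.55. The rises included Ctla4, Tnfrsf4, Il10 and Ccr8, which other lists here also count. Foxp3, the defining factor of these cells, was read at 0.958, 1.55 and 2.55 FPKM in control and 14.4, 5.34 and 8.5 FPKM in combination (log2 difference 1.90 ± 0.33 SE, adjusted p = 0.00338). Ccr8, a chemokine receptor of regulatory T cells in tissue, was read at 1.02, 1.25 and 1.59 FPKM in control and 30.2, 14.9 and 16.8 FPKM in combination, and Ikzf2, which encodes Helios, at 1.62, 1.24 and 2.92 FPKM in control and 11.3, 9.61 and 11.2 FPKM in combination. All 3 genes were low in FPKM beside Cd3g, and each was higher in every combination library. Activated T cells outside the regulatory lineage also express several list members, among them Tnfrsf18.

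No tested NK cell receptor passed against control: 0 of 19 rose and 0 fell by limma (median 0.18). At an unadjusted p under 0.05, 0 were higher and 0 lower. Klrd1, which encodes CD94, was read at 68.6, 93.1 and 167 FPKM in control and 103, 106 and 184 FPKM in combination, and Ncr1, which encodes NKp46 and marks NK cells, at 22.3, 29.5 and 42.8 FPKM in control and 19.5, 11.3 and 40.9 FPKM in combination (adjusted p = 0.467). The groups overlapped in both. The summed level of the list was 266 to 620.1 FPKM in control, 321 to 646 FPKM in combination and 1017 to 1664 FPKM in the polyIC group. Against polyIC, 2 of the 19 were called lower in combination by limma (list median -1.74), where 1.09% of all genes were. Members of the Klra family have near-identical copies, and the counting could split their reads.

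**Figure D2:**
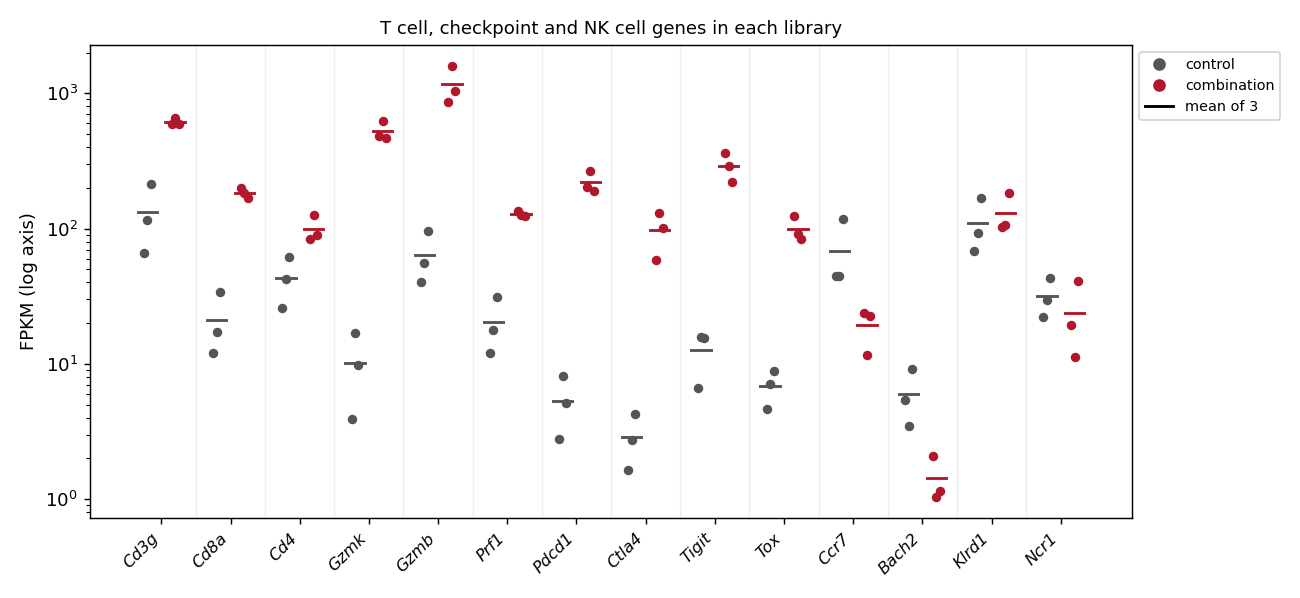
FPKM of T cell, checkpoint and NK cell genes in each control and combination library, on a log axis; points are libraries and short bars are means of 3. Gzmk, Pdcd1, Ctla4 and Tox show wide gaps between the groups, Ccr7 and Bach2 lie lower in combination, and Klrd1 and Ncr1 overlap.

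Lymphocyte cytokines were called in both directions. Of 8 tested, 3 rose (37.5%, against 13.1% of all genes) and 2 fell (25%, against 16.3%). The rises passed in every other setting that tested them, and 0 of the falls did. Il21, a helper T cell cytokine that sustains CD8 T cells and B cells, was read at 0.163, 0.668 and 0.285 FPKM in control and 9.96, 24.2 and 19.9 FPKM in combination (log2 difference 3.73 ± 0.32 SE, adjusted p = 0.000414). Il10, a cytokine that damps inflammation, was read at 2.17, 5.29 and 0.924 FPKM in control and 30.9, 79.2 and 42.6 FPKM in combination, and Ifng, the interferon made by T and NK cells, at 8.52, 13.6 and 16.8 FPKM in control and 82.6, 151 and 135 FPKM in combination. For all 3, the lowest combination library was several-fold above the highest control library. Csf2 and Lta fell by 0.61 and 0.66 on the log2 scale, from control levels of at most 3.63 FPKM. The adjusted p of Csf2 was 0.117 and 0.0658 with control replicates 1 and 2 left out in turn, and 0.11 and 0.0965 with combination replicates 0 and 1 left out in turn, and 0.474 with quantile normalization, 0.0614 with only the groups compared and 0.0525 without control replicate 2 and antiPDL1 replicate 2, and that of Lta was 0.0774 and 0.0878 with control replicates 1 and 2 left out in turn, and 0.0617, 0.131 and 0.0541 with combination replicates 0, 1 and 2 left out in turn, and 0.349 with quantile normalization, 0.0634 with only the groups compared and 0.0543 without control replicate 2 and antiPDL1 replicate 2. Tnf did not pass (adjusted p = 0.202), and Il2 and Il17a were under the filter.

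Chemokines moved in both directions. Of 22 tested, 8 rose (36.4%, against 13.1% of all genes) and 6 fell (27.3%, against 16.3%). The summed level of the list was 1603 to 2345 FPKM in control and 10811 to 14259.7 FPKM in combination. Ccl5, which cytotoxic lymphocytes store and release, was read at 509, 879.8 and 1305 FPKM in control and 10128, 11479 and 8468 FPKM in combination (11.2-fold, adjusted p = 0.00208). It made up most of that sum in the combination libraries. Ccl3 was read at 18.4, 38 and 34.5 FPKM in control and 439, 427 and 428 FPKM in combination and Ccl4 at 33.5, 71.5 and 70.7 FPKM in control and 851, 1131 and 755 FPKM in combination; both attract leukocytes. Cxcl9, an interferon gamma target that attracts CXCR3-bearing T cells, was read at 36.3, 71.9 and 38.5 FPKM in control and 261, 181 and 203 FPKM in combination (log2 difference 2.17 ± 0.52 SE, adjusted p = 0.0113). Cxcl10, its relative, rose by 1.93, with an adjusted p of 0.082 without control replicate 0, and 0.0729 and 0.0617 with combination replicates 1 and 2 left out in turn.

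Products of macrophages and dendritic cells were among the chemokines that fell. Cxcl13, a B cell attractant, was read at 57.2, 39 and 16.5 FPKM in control and 0.937, 0.198 and 0.315 FPKM in combination (77.7-fold lower in combination, adjusted p = 0.00211). Ccl17, a dendritic cell product that binds CCR4, was read at 14.4, 20.8 and 32.2 FPKM in control and 1.46, 0.27 and 0.898 FPKM in combination, and Ccl22, a ligand of the same receptor, at 26.2, 29.1 and 45.9 FPKM in control and 7.62, 1.01 and 4.9 FPKM in combination. Ccl24, an eosinophil attractant made by alternatively activated macrophages, was read at 136, 166 and 33.7 FPKM in control and 13.4, 5.19 and 7.39 FPKM in combination. Combination replicate 1 was the lowest library for all 4 genes. Il12b, a subunit of IL-12 and IL-23, fell from 3.44, 7.06 and 5.61 to 1.24, 0.464 and 2.21 FPKM (log2 difference -1.50). Il6 was below 3 FPKM in each library and fell by 1.13 on the log2 scale. Ccl2, a monocyte attractant, did not pass: 10.2, 13.7 and 6.2 FPKM in control and 14.3, 66.4 and 21.9 FPKM in combination (adjusted p = 0.111).

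Interferon genes were described in a pair of lists, the GTPases and regulators that interferon gamma induces, and the antiviral genes that type I interferon induces. Promoters of both classes carry known elements: the interferon-stimulated response element (ISRE, searched as GAAA, any 2 bases and GAAA) and the gamma-activated site (GAS, searched as TTC, any 3 bases and GAA), on both strands, with overlapping matches counted. The promoters of Gbp5 and Igtp, which passed, and of Isg15, which did not, are shown from 250 bases before the start site to 50 after it, from RefSeq (build GRCm38.p6), written along the gene strand with ISRE and GAS matches in capitals.

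Gbp5 (chr3:142496684-142496983, plus strand): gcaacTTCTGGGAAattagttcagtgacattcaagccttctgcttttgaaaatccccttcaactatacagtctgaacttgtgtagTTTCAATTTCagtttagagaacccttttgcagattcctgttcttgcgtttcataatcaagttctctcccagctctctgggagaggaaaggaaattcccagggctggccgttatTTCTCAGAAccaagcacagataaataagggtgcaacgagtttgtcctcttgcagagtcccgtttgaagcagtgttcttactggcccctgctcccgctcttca
Igtp (chr11:58199306-58199605, plus strand): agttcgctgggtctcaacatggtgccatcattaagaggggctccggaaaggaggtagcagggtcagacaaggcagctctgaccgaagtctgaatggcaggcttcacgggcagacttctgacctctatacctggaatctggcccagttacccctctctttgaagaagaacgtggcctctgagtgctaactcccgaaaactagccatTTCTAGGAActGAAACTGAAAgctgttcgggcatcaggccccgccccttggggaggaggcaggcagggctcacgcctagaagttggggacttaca
Isg15 (chr4:156200769-156201068, minus strand): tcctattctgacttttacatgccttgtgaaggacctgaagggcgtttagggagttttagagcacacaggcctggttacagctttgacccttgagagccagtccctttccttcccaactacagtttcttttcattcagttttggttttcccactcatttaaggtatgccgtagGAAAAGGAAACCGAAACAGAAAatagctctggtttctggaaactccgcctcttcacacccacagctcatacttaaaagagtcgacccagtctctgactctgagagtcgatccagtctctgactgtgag

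Gbp5 held 1 ISRE and 2 GAS matches, Igtp 1 of each, and Isg15 3 overlapping ISRE matches and 0 GAS matches. Among tested interferon gamma genes with a window in the table, an ISRE match was present in 10 of 13 (76.9%) and a GAS match in 8 of 13 (61.5%). In the type I list the counts were 13 of 23 (56.5%) and 6 of 23 (26.1%). Over all 27025 genes of the promoter table the shares were 3.99% and 9.55%. Within the interferon gamma list, an ISRE match was in 7 of 9 genes called higher and 3 of 4 not called. A GAS match was in 6 of those 9 and 2 of those 4. Of 21 type I genes not called, 12 held an ISRE match and 4 a GAS match. A match is a description of letters, and nothing about binding was measured here.

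Of 21 tested interferon gamma genes, 15 rose and 0 fell (median 1.17), although the count was 6 and 9 with control replicates 0 and 1 left out in turn, and 7 without combination replicate 1. Gbp2, a guanylate-binding protein that attacks pathogen vacuoles, was read at 66.6, 103 and 61.6 FPKM in control and 357, 411 and 317 FPKM in combination (log2 difference 2.25 ± 0.52 SE, adjusted p = 0.0102). Iigp1, an immunity-related GTPase, was read at 47.2, 47.2 and 21.3 FPKM in control and 122, 173 and 142 FPKM in combination, and Ifi47, of the same family, at 116, 133 and 187 FPKM in control and 401, 471 and 429.7 FPKM in combination. For these 3 genes the groups were separate. Gbp5 was read at 19.8, 25.9 and 20.7 FPKM in control and 84.3, 80.6 and 71.9 FPKM in combination (adjusted p = 0.0144), with an adjusted p of 0.052 without control replicate 0, and 0.0503 without combination replicate 1. Igtp was read at 39.4, 45.7 and 68.7 FPKM in control and 155, 137 and 134 FPKM in combination (adjusted p = 0.015), with an adjusted p of 0.0626 without control replicate 0. The GTPases form families of similar sequence, and the authors' counting could split reads between members.

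Few type I interferon genes passed. Of 33 tested, 2 rose (6.06%, against 13.1% of all genes) and 1 fell (3.03%, against 16.3%). The median of 0.13 became -0.02 under quantile normalization. In 10 of the 33 all combination libraries were above all controls and in 5 below them, against 25.6% and 20.3% of all genes. The summed list was 1937 to 5834 FPKM in antiPDL1, against 2004 to 3138 in control and 2639 to 3499 in combination. All 12 libraries enter the spread behind these p-values. Isg15, a ubiquitin-like antiviral protein, was read at 61.8, 87.9 and 60.5 FPKM in control and 129.6, 187 and 215 FPKM in combination. Each combination library was above each control library, yet the difference did not pass (log2 difference 1.32 ± 0.63 SE, adjusted p = 0.134). Ifit1, which binds viral RNA, had a log2 difference of 0.91 (adjusted p = 0.0833), and Irf7, the factor that amplifies type I interferon, one of -0.71 (adjusted p = 0.181). Of 18 other settings, Isg15 and Ifit1 passed in 4 each and Irf7 in 3. The lowest adjusted p among those settings was 0.00211, 0.00148 and 0.00156. Bst2, which encodes tetherin and is also a marker of plasmacytoid dendritic cells, was read at 479, 606 and 569.9 FPKM in control and 235, 232 and 276 FPKM in combination and fell (log2 difference -1.15 ± 0.26 SE, adjusted p = 0.00931). The genes that rose were Zbp1 and Isg20 (adjusted p = 0.03 and 0.0301). Without single libraries the adjusted p of Zbp1 was 0.0852, 0.0525 and 0.0657 with control replicates 0, 1 and 2 left out in turn, and 0.0503, 0.099 and 0.0759 with combination replicates 0, 1 and 2 left out in turn, and that of Isg20 was 0.114 and 0.0596 with control replicates 0 and 1 left out in turn, and 0.0503, 0.0913 and 0.0834 with combination replicates 0, 1 and 2 left out in turn. Among 14 sensors and adaptors of double-stranded RNA, 1 rose (7.14%, against 13.1% of all genes). Ifih1, which encodes MDA5, and Tlr3 did not pass (adjusted p = 0.216 and 0.101).

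**Figure D3:**
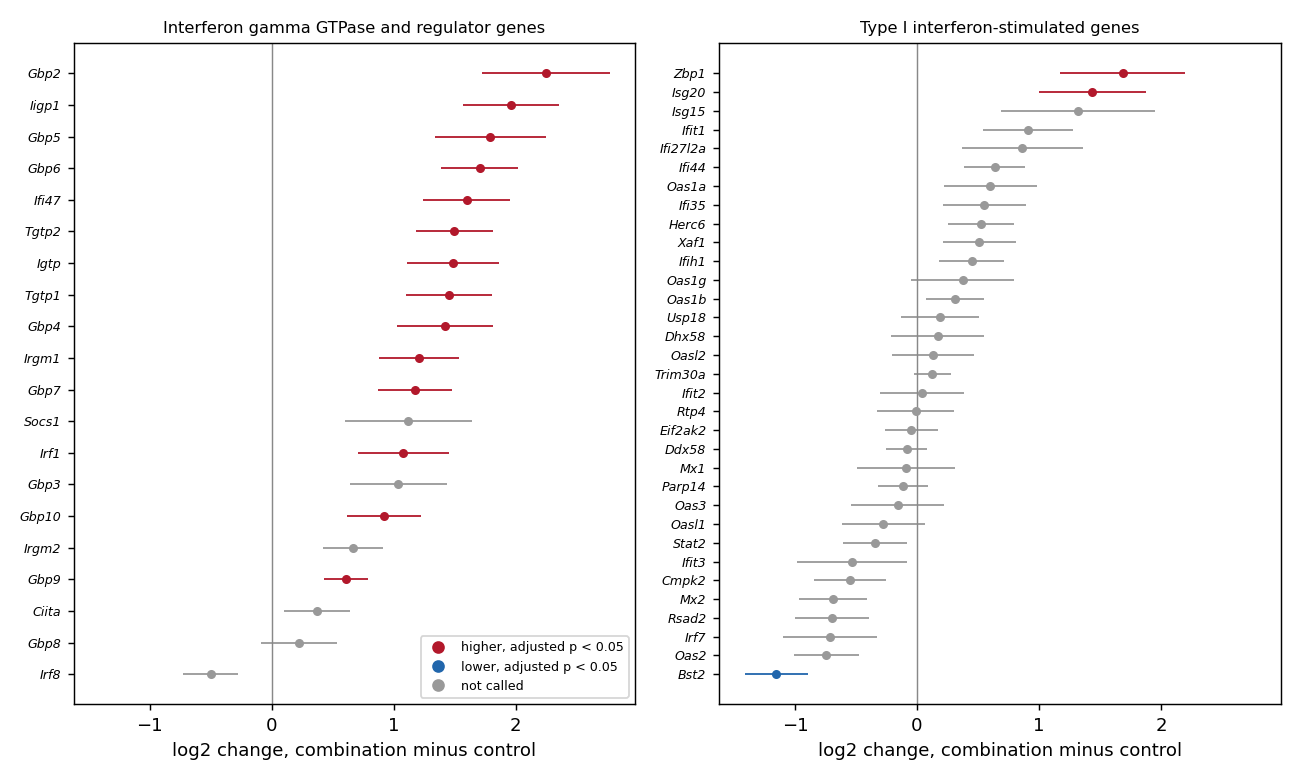
Log2 differences between combination and control for tested interferon gamma genes (left, 1 member not shown) and type I interferon genes (right); bars are standard errors of the limma fit, and red, blue and grey mark genes called higher, called lower and not called. Most genes on the left are red, while 2 on the right are red and 1 is blue.

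Antigen presentation genes rose in part. Of 19 tested MHC class I and immunoproteasome genes, 7 rose and 0 fell (median 0.76); the count was 2 and 1 with control replicates 0 and 1 left out in turn, and 1, 1 and 2 with combination replicates 0, 1 and 2 left out in turn. H2-Q7, a class Ib gene with close copies, was read at 56.3, 87.4 and 77.9 FPKM in control and 240.5, 254 and 215 FPKM in combination (adjusted p = 0.00974), and Tap1, the peptide transporter, at 89.7, 104 and 102 FPKM in control and 278, 237 and 203 FPKM in combination (adjusted p = 0.027). Tap1 had an adjusted p of 0.0887 and 0.0603 with control replicates 0 and 1 left out in turn, and 0.0746, 0.0777 and 0.0511 with combination replicates 0, 1 and 2 left out in turn. B2m, the shared light chain, was read at 6593, 7072 and 8210.2 FPKM in control and 11692, 8156 and 10774 FPKM in combination and did not pass (adjusted p = 0.188). Its log2 difference of 0.47 was -0.15 under quantile normalization. Of 11 class II genes, 0 rose and 2 fell (18.2%, near the 16.3% of all genes called lower). Of the 2 calls, 0 passed in every alternative. Among the genes that fell was H2-Ob, a regulator typical of B cells, with a log2 difference of -1.38 (adjusted p = 0.0153, and 0.0695 without combination replicate 1).

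Genes of dividing cells rose. Of 24 tested mitosis genes, 22 rose and 0 fell (median 1.75), and all 22 calls passed in each of the 18 other settings in which they were tested. Kif11, a spindle motor, was read at 4.94, 5.4 and 4.7 FPKM in control and 21.8, 30.2 and 24.4 FPKM in combination (log2 difference 2.13 ± 0.26 SE, adjusted p = 0.00106). Ccnb2, a cyclin of mitotic entry, was read at 9.87, 11.1 and 10.1 FPKM in control and 44.1, 60.6 and 41.3 FPKM in combination, and Top2a, which untangles DNA before division, at 16.8, 17.2 and 14.2 FPKM in control and 64.2, 85.6 and 68.8 FPKM in combination. Within each group these libraries lay close together, and the groups were several-fold apart. Birc5, which encodes survivin, rose by 2.06 and Mki67, a common proliferation marker, by 1.17. Of 19 DNA replication genes, 14 rose and 0 fell; the rises numbered 7 without combination replicate 1. Rrm2, a subunit of ribonucleotide reductase, was read at 19, 20.4 and 14.5 FPKM in control and 65.1, 77.8 and 60.5 FPKM in combination, and Mcm6, part of the replicative helicase, at 33.3, 35 and 39.8 FPKM in control and 138, 114 and 88.2 FPKM in combination.

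Promoters of mitosis genes often hold CCAAT boxes and the cell cycle homology region (CHR, searched as TTTGAA on both strands), which the DREAM complex binds. The promoter of Ccnb2 (RefSeq, GRCm38.p6, 250 bases before to 50 after the start site, along the gene strand) is shown because its gene rose with the others; CHR and CCAAT matches are in capitals.
Ccnb2 (chr9:70421505-70421804, minus strand): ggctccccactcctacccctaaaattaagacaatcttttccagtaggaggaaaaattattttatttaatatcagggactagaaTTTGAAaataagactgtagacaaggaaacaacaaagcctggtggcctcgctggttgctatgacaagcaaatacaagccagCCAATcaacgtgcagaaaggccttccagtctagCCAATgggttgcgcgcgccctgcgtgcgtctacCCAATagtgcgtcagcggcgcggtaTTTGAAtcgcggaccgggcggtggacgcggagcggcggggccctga
It held 2 CHR and 3 CCAAT matches. Among tested mitosis genes with a window, 15 of 20 (75%) held a CHR match and 17 of 20 (85%) a CCAAT match, against 20.2% and 41.1% of all genes of the promoter table.

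Of 18 tested glycolysis genes, 10 rose and 0 fell (median 0.80), but the count was 3 and 5 with control replicates 0 and 1 left out in turn, and 5 and 2 with combination replicates 0 and 1 left out in turn. Pfkp, the platelet-type phosphofructokinase also used by activated lymphocytes, was read at 23.7, 26.9 and 30.8 FPKM in control and 75.4, 71.6 and 56.5 FPKM in combination (adjusted p = 0.00699). Ldha, lactate dehydrogenase A, was read at 213, 258 and 236 FPKM in control and 533, 671 and 468 FPKM in combination (adjusted p = 0.0173, and 0.0636 without control replicate 0, and 0.0737 without combination replicate 1). Hif1a, a regulator of glycolytic genes, rose by 0.91. Gapdh has many processed copies in the genome, and reads shared with them could be left out of its value, which was 27.8, 29.4 and 15.4 FPKM in control and 52.7, 59.8 and 39.5 FPKM in combination (adjusted p = 0.0342, and 0.0617 and 0.0968 with control replicates 0 and 2 left out in turn, and 0.0789 and 0.122 with combination replicates 0 and 1 left out in turn, and 0.0513 with no filter). The groups were separate in Pfkp, Ldha and Hif1a.

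Kupffer cell genes fell. Of 18 tested, 13 fell and 0 rose (median -3.37). Clec4f, a galactose-binding lectin restricted to Kupffer cells, was read at 2920.2, 3683 and 619.8 FPKM in control and 39.5, 5.22 and 25 FPKM in combination (104-fold lower in combination, log2 difference -6.65 ± 0.94 SE, adjusted p = 0.00178). Vsig4, a complement receptor, was read at 1464, 1382 and 377 FPKM in control and 30.4, 7.91 and 20.1 FPKM in combination, and Timd4, which binds phosphatidylserine on dying cells, at 287, 278 and 64.7 FPKM in control and 10.7, 2.79 and 6.1 FPKM in combination. Cd163, the haemoglobin scavenger receptor, was read at 276, 188 and 51.2 FPKM in control and 3.43, 0.867 and 1.13 FPKM in combination. Control replicate 2 was the lowest control for all 4 genes, by more than 3-fold, and combination replicate 1 was the lowest of all libraries. Folr2, a folate receptor, C6, a complement component, and Pcolce2 fell by 4.74, 5.52 and 4.85 on the log2 scale. At the other end of the list, Csf1r, the receptor for the macrophage growth factor, fell by 1.45 (adjusted p = 0.0296, and 0.124 and 0.093 with control replicates 0 and 1 left out in turn, and 0.106 and 0.0964 with combination replicates 1 and 2 left out in turn, and 0.0642 with only the groups compared). Spic, a factor of red pulp and Kupffer macrophages, was read at 41, 53.2 and 11.3 FPKM in control and 34.7, 38 and 24.4 FPKM in combination; it was the only member with a positive difference (0.11, and -0.00401 with quantile normalization) and did not pass (adjusted p = 0.866). Outside the list, Fcna, a lectin of the complement system, Chp2 and Pmp22 were also among the 12 largest falls, by 5.34, 5.86 and 4.71. The summed Kupffer list was 2843 to 12144 FPKM in control and 830.1 to 1381 FPKM in combination.

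Macrophage genes outside that list included C1qa, Msr1 and Fcgr4. C1qa, a subunit of the first complement component, was read at 2683, 3269.6 and 781 FPKM in control and 722, 522 and 364 FPKM in combination (log2 difference -1.88, adjusted p = 0.0193); its highest combination library was just below control replicate 2. Its adjusted p was 0.0786 and 0.0728 with control replicates 0 and 1 left out in turn, and 0.0612 and 0.0722 with combination replicates 1 and 2 left out in turn. Msr1, a scavenger receptor, was read at 211, 216 and 55.2 FPKM in control and 118, 220.0 and 135 FPKM in combination (adjusted p = 0.816), and Fcgr4, an activating Fc receptor, at 373, 472 and 153 FPKM in control and 338, 422 and 304 FPKM in combination (adjusted p = 0.677). In Spic, Msr1 and Fcgr4 control replicate 2 was the lowest library of all 6. Without it their log2 differences were -0.54, -0.49 and -0.26, against 0.11, 0.15 and 0.23 with it, and none passed (adjusted p = 0.116, 0.179 and 0.529).

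Monocyte genes rose. Of 18 tested, 13 rose and 0 fell (median 1.49); the rises numbered 7 without control replicate 0, and 8 and 8 with combination replicates 1 and 2 left out in turn. S100a4, a calcium-binding protein of monocytes that activated T cells also express, was read at 223, 399 and 582 FPKM in control and 2455, 4338 and 3057 FPKM in combination (8.17-fold, log2 difference 3.09 ± 0.48 SE, adjusted p = 0.00238). Chil3, a chitinase-like protein of inflammatory monocytes, was read at 9.9, 18.3 and 36.8 FPKM in control and 139.8, 143 and 136 FPKM in combination, and Ccr2, the receptor that brings monocytes out of the marrow, at 77.3, 105 and 128 FPKM in control and 234, 245 and 306 FPKM in combination. Cx3cr1, a receptor of patrolling monocytes, was read at 18.3, 20.8 and 16.9 FPKM in control and 60.3, 40.8 and 40.6 FPKM in combination. The groups were separate in all 4. Ly6c2, which marks classical monocytes, was read at 196, 206 and 475 FPKM in control and 576, 453 and 652 FPKM in combination and did not pass (adjusted p = 0.143).

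Of 20 tested neutrophil genes, 8 rose and 0 fell, but the count was 0 and 1 with control replicates 0 and 1 left out in turn, and 1 and 0 with combination replicates 1 and 2 left out in turn. Ngp, a protein of secondary granules, was read at 3.84, 5.58 and 19.2 FPKM in control and 49.8, 28.6 and 72.7 FPKM in combination (adjusted p = 0.0337), with an adjusted p of 0.128 and 0.0931 with control replicates 0 and 1 left out in turn, and 0.0744, 0.0557 and 0.106 with combination replicates 0, 1 and 2 left out in turn, and 0.0567 with no filter. S100a8, the abundant calcium-binding protein of mature neutrophils, was read at 463, 1124 and 1478 FPKM in control and 920.2, 1603 and 2892 FPKM in combination and overlapped between the groups (adjusted p = 0.265). Csf3r, the receptor for G-CSF, had a log2 difference of -0.56 (adjusted p = 0.175).

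**Figure D4:**
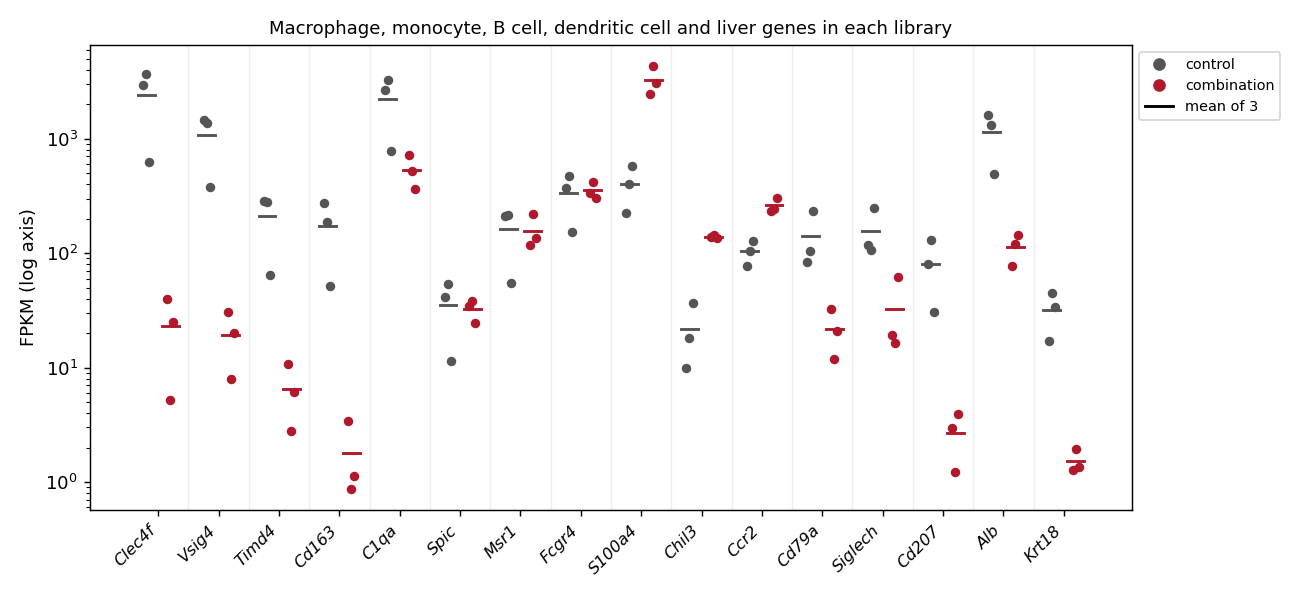
FPKM of macrophage, monocyte, B cell, dendritic cell and liver genes in each control and combination library, on a log axis; points are libraries and short bars are means of 3. Clec4f, Vsig4, Timd4 and Cd163 are 10-fold or more lower in combination, Spic, Msr1 and Fcgr4 overlap, and S100a4, Chil3 and Ccr2 lie higher.

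Dendritic cell genes fell. Of 24 tested conventional dendritic cell genes, 15 fell and 0 rose (median -1.11). Cd207, which encodes langerin, was read at 80.9, 129.9 and 30.6 FPKM in control and 2.95, 1.22 and 3.91 FPKM in combination (log2 difference -4.31 ± 0.48 SE, adjusted p = 0.000749). Mgl2, a lectin of type 2 dendritic cells and some macrophages, was read at 8.44, 10.7 and 12.7 FPKM in control and 0.844, 0.348 and 0.694 FPKM in combination, and Cd209a, a homologue of DC-SIGN, at 57.7, 61.4 and 115 FPKM in control and 17.4, 3.76 and 14.7 FPKM in combination. Combination libraries were below all control libraries in each. Clec9a, a receptor for dead cells that marks cross-presenting dendritic cells, was read at 21.4, 22.1 and 27.3 FPKM in control and 21.2, 9.71 and 23.2 FPKM in combination and did not pass (adjusted p = 0.319). Of 17 plasmacytoid dendritic cell genes, 13 fell and 0 rose (median -1.54); the falls numbered 8 without combination replicate 1. Siglech, a receptor of these interferon-producing cells, was read at 117, 107 and 246 FPKM in control and 19.4, 16.4 and 62.4 FPKM in combination (adjusted p = 0.012, and 0.0564 without combination replicate 1). Tcf4, the factor that maintains them, fell by 1.84.

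B cell genes fell: 17 of 18 tested fell and 0 rose (median -2.25), and 15 of the calls passed in each of the 18 other settings. Cd79a, part of the B cell receptor complex, was read at 83.6, 103 and 235 FPKM in control and 32.5, 11.9 and 20.8 FPKM in combination (log2 difference -2.60 ± 0.45 SE, adjusted p = 0.00335). Pax5, the factor that fixes B cell identity, was read at 11.2, 9.44 and 26 FPKM in control and 1.99, 0.918 and 1.81 FPKM in combination. Control replicate 2 was the highest library in both, well above the other controls, and all combination libraries were below all controls. The summed list was 934 to 2191 FPKM in control and 298 to 476 FPKM in combination.

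RNA of cells other than leukocytes was present in both groups and was lower in combination. Of 27 tested hepatocyte secreted proteins, 26 fell and 0 rose (median -2.87), and none of the 27 was at 0 in any control or combination library. Alb, serum albumin, was read at 1601, 1315 and 495 FPKM in control and 77.4, 121 and 144 FPKM in combination (log2 difference -3.19 ± 0.65 SE, adjusted p = 0.0061), and Apoc1, an apolipoprotein that macrophages also make, at 2742, 3316 and 561 FPKM in control and 70.4, 57.2 and 63.3 FPKM in combination. Ttr, the thyroid hormone carrier, was read at 269.9, 191 and 90.7 FPKM in control and 9.87, 16.4 and 19.5 FPKM in combination. Control replicate 2 was again the control nearest to the combination libraries. The exception was Hp, haptoglobin, which leukocytes also make, at 122, 155 and 113 FPKM in control and 193, 257 and 253 FPKM in combination (adjusted p = 0.101). Of 23 hepatocyte enzymes, 19 fell and 0 rose; the falls numbered 10 and 10 with control replicates 0 and 1 left out in turn, and 12, 12 and 12 with combination replicates 0, 1 and 2 left out in turn. Cyp2e1 fell by 3.02, and Ass1, the urea cycle enzyme that activated macrophages also use, did not pass (adjusted p = 0.43).

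Epithelial and oncofetal genes fell beside them. Of 17 keratin and junction genes 8 were under the filter, and of the 9 tested 7 fell and 0 rose. Krt18, a keratin of hepatocytes and simple epithelia, was read at 17.2, 45 and 33.8 FPKM in control and 1.28, 1.94 and 1.35 FPKM in combination (log2 difference -3.62 ± 0.33 SE, adjusted p = 0.000414), and Sprr1a, an epithelial stress protein, at 6.75, 35.2 and 34.4 FPKM in control and 0.124, 0.0785 and 0.0341 FPKM in combination. Igfbp1, a liver protein that binds insulin-like growth factors, was read at 46.6, 119 and 87.6 FPKM in control and 1.04, 1.68 and 0.811 FPKM in combination (71.7-fold lower in combination). For Krt18, Sprr1a and Igfbp1, control replicate 0 was the lowest control, unlike in Alb. Of 17 oncofetal genes 8 were under the filter, and 7 of the 9 tested fell. H19, an imprinted RNA of fetal liver, was read at 62.6, 33.5 and 32.7 FPKM in control and 3.81, 3.85 and 1.2 FPKM in combination, and Afp, alpha-fetoprotein, fell by 2.41. The summed keratin list was 79.5 to 208 FPKM in control and 13.5 to 16.5 FPKM in combination.

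Sinusoidal endothelial genes fell in 20 of 23 cases, and 0 rose (median -2.07). Cdh5, the adhesion molecule of endothelial junctions, was read at 208, 135 and 51.2 FPKM in control and 13.7, 5.66 and 9.1 FPKM in combination (log2 difference -3.52 ± 0.64 SE, adjusted p = 0.00405). Stab2, a hyaluronan receptor of the sinusoid, was read at 51.8, 25 and 9.75 FPKM in control and 3.05, 0.781 and 1.0 FPKM in combination, and Clec4g, a lectin of the same cells, at 253, 165 and 57.8 FPKM in control and 25.6, 11.7 and 14.9 FPKM in combination. The order of the controls, replicate 0 highest and replicate 2 lowest, was the same in each. The summed list was 551 to 2076 FPKM in control and 276 to 435 FPKM in combination. Ptprc rose in the same libraries, and the part of endothelial and hepatocyte RNA in the results above was not tested.

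Of 11 tested acute phase genes, 2 rose (18.2%, against 13.1% of all genes) and 4 fell (36.4%, against 16.3%). The falls numbered 1 and 1 with control replicates 0 and 1 left out in turn, and 2 and 2 with combination replicates 0 and 1 left out in turn. Saa3, the serum amyloid gene that macrophages express, was read at 2.21, 4.25 and 16.4 FPKM in control and 70.6, 216 and 119 FPKM in combination (17.7-fold, log2 difference 4.21 ± 0.87 SE, adjusted p = 0.0064). Saa1, the hepatocyte gene of the family, was read at 6.33, 11.3 and 3.7 FPKM in control and 1.62, 4.65 and 4.34 FPKM in combination and did not pass (adjusted p = 0.296). Lcn2, lipocalin 2 of neutrophils and stressed epithelia, was read at 12.5, 18.9 and 32.3 FPKM in control and 41.8, 48.8 and 64.1 FPKM in combination (adjusted p = 0.0185), with an adjusted p of 0.0808 and 0.0537 with control replicates 0 and 1 left out in turn, and 0.0555 and 0.0672 with combination replicates 1 and 2 left out in turn. Members of the Saa family are similar in sequence.

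Set against each single treatment, far fewer genes passed. Against the polyIC group 149 genes were called (1.24% of those tested), 19 higher in combination (0.159%) and 130 lower (1.09%). Against the antiPDL1 group 15 were called (0.125%), 12 higher (0.1%) and 3 lower (0.025%). These counts depended on single libraries. Against polyIC they were 383, 3 and 534 with control replicates 0, 1 and 2 left out in turn, and 3, 1 and 0 with combination replicates 0, 1 and 2 left out in turn. Against antiPDL1 they were 8, 9 and 276 with control replicates 0, 1 and 2 left out in turn, and 5, 0 and 1 with combination replicates 0, 1 and 2 left out in turn. The control libraries enter these fits only through the shared spread. The counts of 0 had 1651 genes at an unadjusted p under 0.05 against polyIC and 920 against antiPDL1. With all 12 libraries, at an unadjusted p under 0.05 there were 1624 and 1725 genes.

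A set of 7 genes was higher in combination than in each of the other 3 groups. With replicate number as a block in the fit, Il21, Il10, Gcg, Angptl2 and Gng3 did not pass against polyIC. Their adjusted p was then 0.0621, 0.0717, 0.0621, 0.0621 and 0.0712. Against antiPDL1, Il21, Il10, Gcg and Gng3 did not pass in that fit (adjusted p = 0.0544, 0.0774, 0.0505 and 0.063), while Angptl2 did. Il21 was read at 0.163, 0.668 and 0.285 FPKM in control, 2.95, 1.52 and 1.64 in polyIC, 2.88, 1.27 and 1.53 in antiPDL1 and 9.96, 24.2 and 19.9 in combination. Its log2 difference was 2.60 against polyIC (adjusted p = 0.029) and 2.67 against antiPDL1 (adjusted p = 0.0108). Its lowest combination library was above all 9 others, which was a condition for naming genes of this set. Against polyIC its adjusted p was 0.125 and 0.0822 with combination replicates 1 and 2 left out in turn, and against antiPDL1 it was 0.0661 and 0.0875 with combination replicates 1 and 2 left out in turn, and 0.0664 without antiPDL1 replicate 2, and 0.132 with only the groups compared.

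Il10 was read at 2.17, 5.29 and 0.924 FPKM in control, 8.05, 4.94 and 7.63 in polyIC, 8.24, 2.16 and 2.44 in antiPDL1 and 30.9, 79.2 and 42.6 in combination (adjusted p = 0.0374 against polyIC and 0.0348 against antiPDL1). Gcg, which encodes proglucagon, the precursor of the pancreatic and gut hormones glucagon and GLP-1, was read at 0.0603, 1.89 and 0.177 FPKM in control, 6.45, 7.35 and 3.37 in polyIC, 5.32, 0.557 and 0.778 in antiPDL1 and 46.4, 115 and 59.6 in combination (adjusted p = 0.0367 and 0.0108). In both genes combination replicate 1 was the highest of the 12 libraries. Against polyIC the adjusted p of Il10 was 0.0599 without control replicate 1, and 0.15, 0.152 and 0.0934 with combination replicates 0, 1 and 2 left out in turn, and 0.0943 with no filter and 0.0604 with quantile normalization, and against antiPDL1 0.0589 without control replicate 0, and 0.0688, 0.197 and 0.132 with combination replicates 0, 1 and 2 left out in turn, and 0.18 without antiPDL1 replicate 2, and 0.0546 with a pseudocount of 0.1, 0.0575 with no filter and 0.172 with only the groups compared. For Gcg it was, against polyIC, 0.0584 without control replicate 1, and 0.15, 0.138 and 0.0822 with combination replicates 0, 1 and 2 left out in turn, and 0.064 with a pseudocount of 0.1, 0.0832 with no filter and 0.0582 with quantile normalization. Against antiPDL1 it was 0.0661 and 0.0804 with combination replicates 1 and 2 left out in turn, and 0.0664 without antiPDL1 replicate 2, and 0.0546 with a pseudocount of 0.1 and 0.109 with only the groups compared.

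Angptl2, a secreted angiopoietin-like protein, was read at 1.64, 1.29 and 0.571 FPKM in control, 2.21, 2.14 and 1.9 in polyIC, 1.53, 0.93 and 1.25 in antiPDL1 and 7.29, 10.5 and 7.19 in combination (adjusted p = 0.03 and 0.00914). Against polyIC its adjusted p was 0.0572 without control replicate 1, and 0.0977, 0.138 and 0.0822 with combination replicates 0, 1 and 2 left out in turn, and against antiPDL1 0.0661 without combination replicate 1, and 0.0604 without antiPDL1 replicate 2, and 0.0867 with only the groups compared. Gng3, a G protein gamma subunit best known from neurons, was read at 0.0834, 0.086 and 0.0802 FPKM in control, 1.23, 0.725 and 0.779 in polyIC, 1.18, 0.226 and 0.42 in antiPDL1 and 2.66, 3.11 and 2.81 in combination (adjusted p = 0.0394 and 0.0423). In both genes each combination library was above all 9 others, as the naming condition required. Gng3 was below 0.1 FPKM in every control library. Over the other settings the adjusted p of Gng3 ran from 0.000585 to 0.17 against polyIC and from 0.00187 to 0.24 against antiPDL1. Against polyIC it was 0.0659 without control replicate 1, and 0.17, 0.162 and 0.104 with combination replicates 0, 1 and 2 left out in turn, and 0.0975 with a pseudocount of 0.1, 0.0842 with no filter and 0.0582 with quantile normalization. Against antiPDL1 it was 0.0674 and 0.09 with control replicates 0 and 1 left out in turn, and 0.13, 0.24 and 0.132 with combination replicates 0, 1 and 2 left out in turn, and 0.18 without antiPDL1 replicate 2, and 0.0687 with a pseudocount of 0.1 and 0.172 with only the groups compared. The remaining 2 of the 7 were Fam81a, read at 1.11, 1.34 and 1.04 FPKM in combination, and a predicted gene.

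Ifng, Tnfrsf4 and Cd4 were higher than in polyIC (log2 difference 1.96, 1.96 and 1.31, adjusted p = 0.0374, 0.0467 and 0.0443). They did not pass against antiPDL1 (adjusted p = 0.0568, 0.0841 and 0.0841). With replicate number as a block they did not pass against polyIC either (adjusted p = 0.0621, 0.0815 and 0.0727). Against polyIC, the adjusted p of Ifng was 0.0599 without control replicate 1, and 0.128, 0.138 and 0.0913 with combination replicates 0, 1 and 2 left out in turn, and 0.0832 with no filter and 0.0582 with quantile normalization, that of Tnfrsf4 0.0713 without control replicate 1, and 0.17, 0.195 and 0.118 with combination replicates 0, 1 and 2 left out in turn, and 0.112 with no filter, 0.0503 with a mean FPKM of at least 5, 0.07 with quantile normalization and 0.0515 with median-of-ratios rescaling, and that of Cd4 0.0741 without control replicate 1, and 0.17, 0.189 and 0.101 with combination replicates 0, 1 and 2 left out in turn, and 0.0943 with no filter, 0.0501 with a mean FPKM of at least 5, 0.107 with quantile normalization and 0.0637 with median-of-ratios rescaling. Gzmk and Pdcd1, both among the 12 largest rises over control, passed against neither (adjusted p = 0.476 and 0.596 against polyIC, 0.142 and 0.162 against antiPDL1), nor did Clec4f (adjusted p = 0.0819 and 0.0568). In antiPDL1, Gzmk was read at 329, 32.3 and 40.6 FPKM and Pdcd1 at 153, 13.2 and 15.6 FPKM. Every combination library was above every antiPDL1 library in both genes (log2 difference 2.76 and 2.72). AntiPDL1 replicate 2 had a mean correlation across genes of 0.952 to control and 0.928 to its own group. For antiPDL1 replicate 0 it was 0.961 to combination and 0.942 to its own group. Whether the differences of Gzmk, Pdcd1 and Clec4f from control themselves differ between treatments was not tested. Against antiPDL1, Ifng passed in 5 of 18 other settings, Clec4f in 4, Cd4 and Tnfrsf4 in 3 each, Gzmk in 2 and Pdcd1 in 1. Against polyIC, Clec4f passed in 5 of them, Gzmk in 1 and Pdcd1 in 0. Of the 130 genes lower than in polyIC, 24 were among the 27 hepatocyte secreted genes, whose summed level in polyIC was 3270.2 to 4688 FPKM against 564 to 855 FPKM in combination.

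The 3 genes lower in combination than in antiPDL1 were Ccl17, Cd207 and Mgl2. Ccl17 was read at 14.4, 20.8 and 32.2 FPKM in control, 1.45, 3.31 and 2.99 in polyIC, 13.1, 11.9 and 8.76 in antiPDL1 and 1.46, 0.27 and 0.898 in combination (log2 difference -2.74 against antiPDL1, adjusted p = 0.0108), and Cd207 at 80.9, 129.9 and 30.6 FPKM in control, 10.3, 7.19 and 8.29 in polyIC, 30.9, 36.3 and 68 in antiPDL1 and 2.95, 1.22 and 3.91 in combination (adjusted p = 0.0159). Mgl2 had a log2 difference of -2.0 (adjusted p = 0.0423). All combination libraries were below all antiPDL1 libraries in the first pair. With replicate number as a block, the adjusted p against antiPDL1 was 0.0544 for Ccl17 and 0.0609 for both Cd207 and Mgl2. Against antiPDL1 the adjusted p of Ccl17 was 0.0661 and 0.0804 with combination replicates 1 and 2 left out in turn, and 0.0604 without antiPDL1 replicate 2, and 0.0867 with only the groups compared; that of Cd207 was 0.0688, 0.105 and 0.0804 with combination replicates 0, 1 and 2 left out in turn, and 0.0759 without antiPDL1 replicate 2, and 0.0867 with only the groups compared; that of Mgl2 was 0.0589 and 0.09 with control replicates 0 and 1 left out in turn, and 0.119, 0.235 and 0.132 with combination replicates 0, 1 and 2 left out in turn, and 0.18 without antiPDL1 replicate 2, and 0.0621 with no filter, 0.0681 with quantile normalization and 0.172 with only the groups compared.

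**Figure D5:**
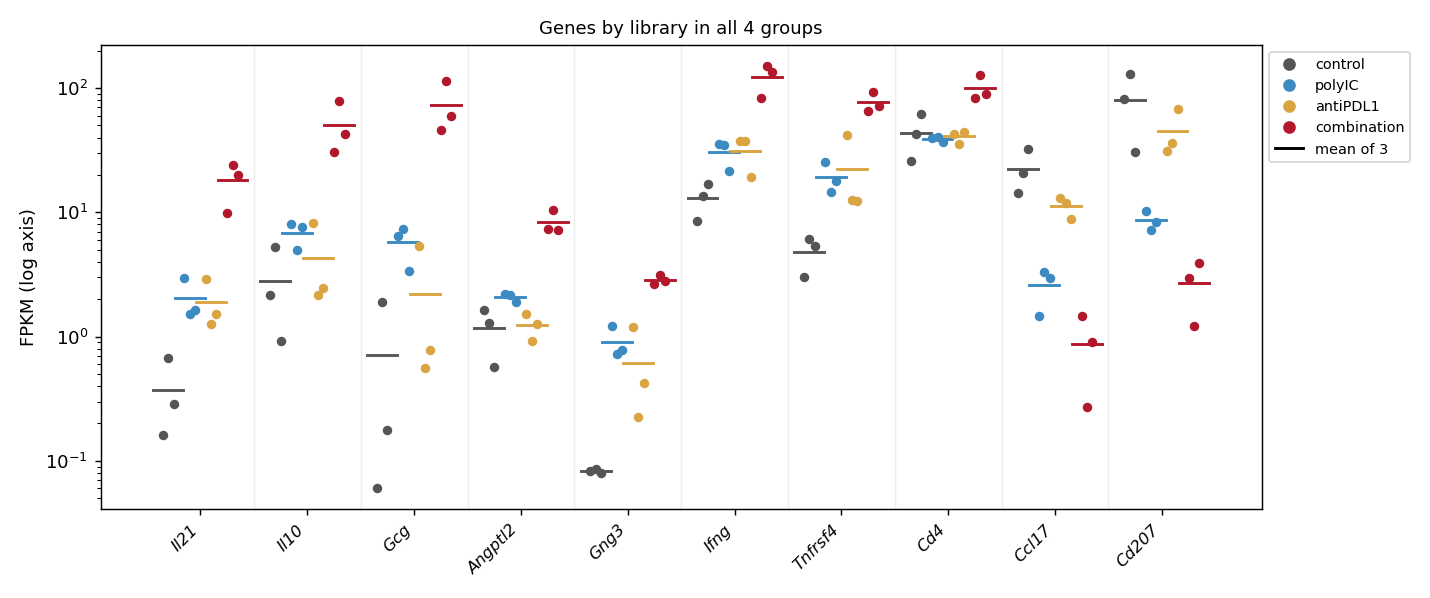
FPKM of 10 genes in each of the 12 libraries, by group, on a log axis; points are libraries and short bars are means of 3. Il21, Il10, Gcg, Angptl2 and Gng3 are highest in the 3 combination libraries, and Ccl17 and Cd207 are lower in combination than in antiPDL1.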

How the data were processed

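RNA was sequenced from CD45-selected liver cells of 12 samples, 3 in each of 4 groups, from stranded mRNA libraries. The authors made FPKM values with Cuffdiff on mm9, per the submitters' processing notes; the table names no unit, and FPKM was taken from the values. The Cuffdiff version, aligner, annotation and scaling were not given in the sources used here. FPKM totals were 476111 to 677535 per library, of which Mir6236, a small RNA gene overlapping ribosomal RNA, took 4.97% to 20.6%. The totals were 476111 to 568216 in control and 624568 to 674810 in combination. Mir6236 took 4.97% to 15.7% in control and 16.2% to 20.6% in combination, so neither overlapped between these groups. The main fit did not rescale the libraries. With median-of-ratios rescaling 1742 genes were called higher than control and 2266 lower. Of 24319 symbols, 23124 were current, 1064 older and 131 unmatched.

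The 22 failed estimates were removed, log2(FPKM + 1) was computed (pseudocount 1), and genes at 1 FPKM or more in at least 3 libraries were fitted with limma 3.58.1 (trend, two-sided, R 4.3.3) over the 12 libraries, with a mean for each group and no covariate; p-values were adjusted by Benjamini-Hochberg over 11978 genes. The fit was tested on simulated data. Tables used Python 3.11.15, numpy 2.4.6 and pandas 2.3.3, and figures matplotlib 3.10.9. Of the list entries, 822 were tested, 80 were under the filter, 4 had no entry by that symbol and 3 were among the failed estimates. The gene lists and the comparison were chosen with earlier results of these data known. Named genes were the 12 largest rises and falls that passed without overlap (no predicted genes, small RNAs or receptor segments), members of the lists, a fixed panel (Cd274, Pdcd1, Alb, Ptprc, Actb, Gapdh) and genes called against all 3 other groups. Separation of the groups was a condition for the first set and for the last. Replicate numbers were not used as pairs. Alternatives were another pseudocount (0.1), filters, normalizations, groups in the fit, a replicate block, array weights, keeping failed estimates and leaving out libraries. Some list members are counted but not reported by name here. Promoters came from RefSeq (GRCm38.p6); the files give no positions.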

Additional observations from a re-analysis of the deposited data

How the results depend on the processing

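The direction of each called gene named in the report was the same in each of 18 alternatives that tested it, 3 of them (leaving out antiPDL1 replicate 0, antiPDL1 replicate 2, or the latter with control replicate 2) chosen after seeing the data. Of the 120 named genes called against control, 101 also passed in every alternative that tested them, as did 0 of the 8 called against polyIC and 0 of the 8 called against antiPDL1. Some named genes not called against control passed in some alternatives. Cd274 did so in 7, Tbx21 in 6, Hp, Isg15 and Ifit1 in 4 each, and Ccl2, Ly6c2 and Irf7 in 3 each. Csf3r passed in 2, and Clec9a and Tlr3 in 1 each. The 3524 calls against control became 1968 with a mean FPKM of at least 5 (fewer genes tested) and 6881 with array quality weights. They became 1666 to 4151 without 1 control or combination library. Without antiPDL1 replicate 0 they became 3554, and without antiPDL1 replicate 2 they became 4499. They became 5183 without control replicate 2 and antiPDL1 replicate 2. A total of 1486 calls passed in every alternative. The 149 calls against polyIC became 342 with a pseudocount of 0.1, 23 with no filter, 75 with a mean of at least 5, 3 with quantile normalization, 1353 with only the groups compared and 3661 with weights, 0 to 534 without 1 library, 496 without antiPDL1 replicate 2 and 1104 without it and control replicate 2. The 15 calls against antiPDL1 became 31 with no filter, 6 with a mean of at least 5 and 822 with weights. With only the groups compared they became 0 (limma, 1779 at an unadjusted p under 0.05). They became 0 to 276 without 1 control or combination library and 331 without antiPDL1 replicate 0. Without antiPDL1 replicate 2 they became 0 (limma, 1133 at an unadjusted p under 0.05), and 87 when control replicate 2 was also left out. The cause of the other shifts was not tested.

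With a replicate block, calls were 3928 against control, 2 against polyIC and 1 against antiPDL1; 8 of the 8 named genes called did not pass (adjusted p = 0.0621 to 0.0815) against polyIC and 7 of the 8 named genes called did not pass (adjusted p = 0.0505 to 0.0774) against antiPDL1. Same-numbered control and combination libraries had correlations of their deviations of 0.037, 0.041 and 0.034, and each was higher than with other numbers; no label says what a number shares. Uncalled genes changed sign: B2m to -0.15 with quantile normalization; with that normalization Fcgr4 was at -0.034, Msr1 at -0.10 and Spic at -0.00401, and Spic was at -0.25 with weights. Without 1 library Fcgr4 ran from -0.26 to 0.55, Msr1 from -0.49 to 0.48 and Spic from -0.54 to 0.53, the lowest of each without control replicate 2, whether or not antiPDL1 replicate 2 was also left out. Without combination replicate 1 Msr1 was at -0.11 and Spic at -0.012. Read depth is known only in relative terms, from 0.466 to 1 over the 12 libraries, so no counting limits were set, and genes under the filter were not assessed. Fits without a polyIC library were not run.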

Other observations

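Further gene lists are read against the shares over all genes tested, of which 13.1% were called higher in combination and 16.3% lower. Of 17 tested genes of macrophage lipid handling and suppression, 6 fell (35.3%) and 0 rose. Mrc1, the mannose receptor, was read at 280.1, 204 and 68.3 FPKM in control and 18.1, 8.19 and 9.65 FPKM in combination (log2 difference -3.69, adjusted p = 0.00462 by limma). Abca1, a cholesterol exporter, and Cd36, a fatty acid and scavenger receptor, fell by 2.39 and 2.03 on the log2 scale. Of 12 heme and iron genes, 2 fell (16.7%, near the share over all genes), Cd163 and Slc40a1; the latter encodes ferroportin, the iron exporter, and was read at 1604, 1630.2 and 399 FPKM in control and 173, 84.7 and 97.5 FPKM in combination. Control replicate 2 was the lowest control in Mrc1 and Slc40a1.

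Among 19 tested JAK, STAT and SOCS genes, 4 rose (21.1%) and 2 fell (10.5%), against 29.4% of all genes called in either direction; the rises numbered 2 and 2 with control replicates 0 and 1 left out in turn, and 2 and 2 with combination replicates 0 and 1 left out in turn. Socs3, a feedback inhibitor of cytokine signals, was read at 8.05, 11.5 and 11.1 FPKM in control and 33.7, 67.4 and 34.7 FPKM in combination (adjusted p = 0.0091), and Jak3, the kinase of the common gamma chain, at 14.6, 12.8 and 14.9 FPKM in control and 46.5, 44.8 and 28.3 FPKM in combination (adjusted p = 0.00506). Of 15 chemokine receptors, 5 rose (33.3%) and 4 fell (26.7%); the rises numbered 3 without control replicate 0, and 3 without combination replicate 1, and the falls 2 and 2 with control replicates 1 and 2 left out in turn, and 2 and 2 with combination replicates 0 and 1 left out in turn. Cxcr6, a receptor of liver-resident lymphocytes, was read at 59.9, 98.3 and 156 FPKM in control and 218, 384 and 257 FPKM in combination (adjusted p = 0.0217, and 0.0945 and 0.0557 with control replicates 0 and 1 left out in turn, and 0.0908 and 0.0518 with combination replicates 1 and 2 left out in turn). Ccr3, the eosinophil receptor for the Ccl24 product, was read at 9.46, 6.77 and 9.46 FPKM in control and 2.6, 1.25 and 2.81 FPKM in combination and fell by 1.59.

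Of 14 erythroid genes 6 were tested, of which 3 fell and 0 rose; the falling count was 1 and 1 with combination replicates 1 and 2 left out in turn. Alas2, the erythroid enzyme that starts heme synthesis, was read at 7.64, 2.53 and 2.94 FPKM in control and 0.554, 0.554 and 0.615 FPKM in combination (adjusted p = 0.00603). Of 11 platelet and megakaryocyte genes 9 were under the filter, and 1 of the 2 tested fell. It was Pf4, a platelet and megakaryocyte chemokine that Kupffer cells also express, read at 48.6, 70.4 and 20.6 FPKM in control and 14, 15.3 and 6.75 FPKM in combination (adjusted p = 0.0214, and 0.0752 and 0.0795 with control replicates 0 and 1 left out in turn, and 0.0811 without combination replicate 2). The summed erythroid list was 32.8 to 120.4 FPKM in control and 12.8 to 29.5 FPKM in combination.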
